A study of Mus musculus with 20 samples.

Results

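The 47 genes described here encode enzymes of amino acid breakdown and their close partners in the liver. They were chosen by name, from the catabolic routes of the branched-chain amino acids, phenylalanine and tyrosine, tryptophan, lysine, histidine, glycine and glyoxylate, proline, and alanine, aspartate, serine and threonine. The rule itself holds names and no measured value, but the list was drawn up with earlier results of these data known. The 47 symbols were found among the 55573 gene IDs of the deposited count files, and all 47 were among the 13783 genes tested. Liver RNA was sequenced from 20 male mice. They made up 4 groups of 5, with both lines, control and Titan, taken at 11 weeks and at 19-21 weeks of age. Control mice belong to the unselected line FZTDU, which has been mated at random since it was founded from outbred and inbred populations. Titan mice (DU6) descend from the same founder population, and were selected over many generations for high body mass. Both lines had free access to a standard breeding diet. Each line is a single breeding population kept apart from the other, so a line difference cannot be told apart from any other difference between these populations.

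The liver removes the nitrogen of surplus amino acids as ammonia or by transfer to 2-oxo acids, and oxidises the carbon skeletons or passes them on to make glucose and ketone bodies. Most of the enzymes sit in hepatocytes, many of them in mitochondria, and inherited loss of several of them is known from disease: loss of AGXT causes primary hyperoxaluria, loss of FAH tyrosinaemia, and loss of IVD isovaleric acidaemia. Several of the genes are known targets of glucagon, glucocorticoids and dietary protein, among them Tat, Sds, Tdo2 and Got1. The feeding state and time of day at death of these mice are not given in the sources used here, and their part in the results was not tested.

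Amino acid catabolism genes were mostly lower in Titan livers. At 11 weeks 20 of the 47 genes were called lower and 1 higher (edgeR quasi-likelihood test, Benjamini-Hochberg adjusted p under 0.05 over all genes tested), which is 42.6% of the genes lower, beside 7.69% of all 13783 genes called lower and 7.23% called higher. At 19-21 weeks 27 of the 47 were called lower, 57.4%, and 0 higher, beside 4.88% of all genes called lower and 4.24% called higher. No gene of the 47 was higher at 19-21 weeks at an unadjusted p under 0.05 either (0 genes), beside 1641 of all 13783 tested genes. DESeq2 also called 0 of the 47 higher. The log2 fold change, Titan against control, was negative for 41 of the 47 genes at 11 weeks and for 46 at 19-21 weeks. Its median was -0.29 and -0.42, beside -0.0157 and 0.0093 over all tested genes. In bulk tissue, fewer hepatocytes and less RNA per hepatocyte cannot be told apart.

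**Figure D1:**
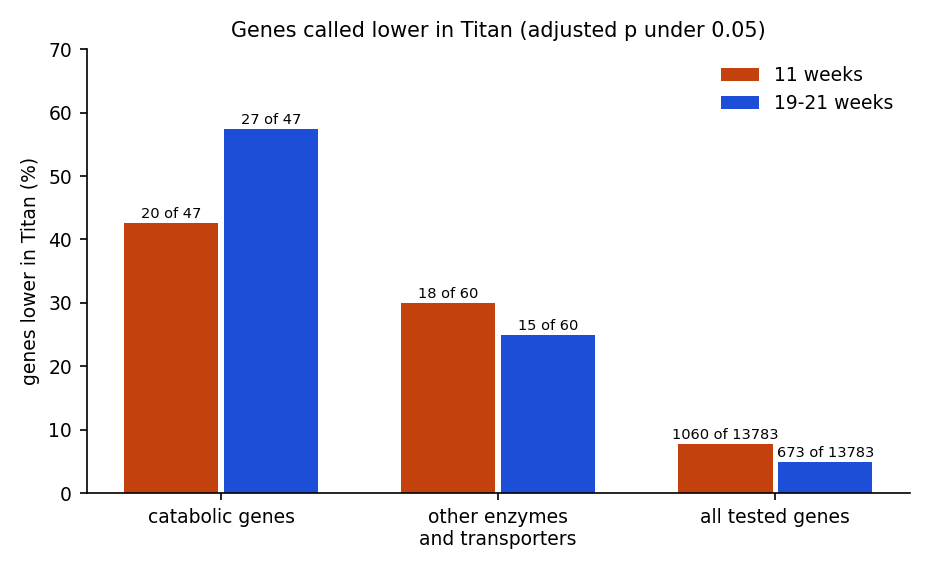
Share of genes called lower in Titan (vertical axis, percent) at 11 weeks (orange) and 19-21 weeks (blue) for the 47 catabolic genes, for 60 other tested enzymes and transporters of the same pathways, and for all tested genes; the numbers over the bars are counts. The catabolic genes reached 20 of 47 and 27 of 47, and all tested genes 1060 and 673 of 13783.

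Expression is given as CPM, the reads of a gene per 1000000 reads on genes, with library sizes scaled by TMM. Every Titan mouse lay below every control of its age for 16 of the 47 genes at 11 weeks, beside 6.08% of all tested genes, and for 14 at 19-21 weeks, beside 4.0%. For 0 of the 47 genes did every Titan mouse lie above every control at either age, beside 5.84% of all genes at 11 weeks and 3.62% at 19-21 weeks. Summed over the 47 genes, the 11-week controls were at 12563, 13584, 15318, 15904 and 13733 CPM, and the 11-week Titan mice at 12224, 11154, 11745, 10804 and 10782 CPM. The 19-21-week controls were at 15446, 14965, 14299, 14043 and 13690 CPM, and the Titan mice of that age at 10094, 12429, 10540, 8570 and 11556 CPM. The sums of the Titan and control mice did not overlap at either age, and the lowest sum was that of Titan mouse 4 of 19-21 weeks.

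**Figure D2:**
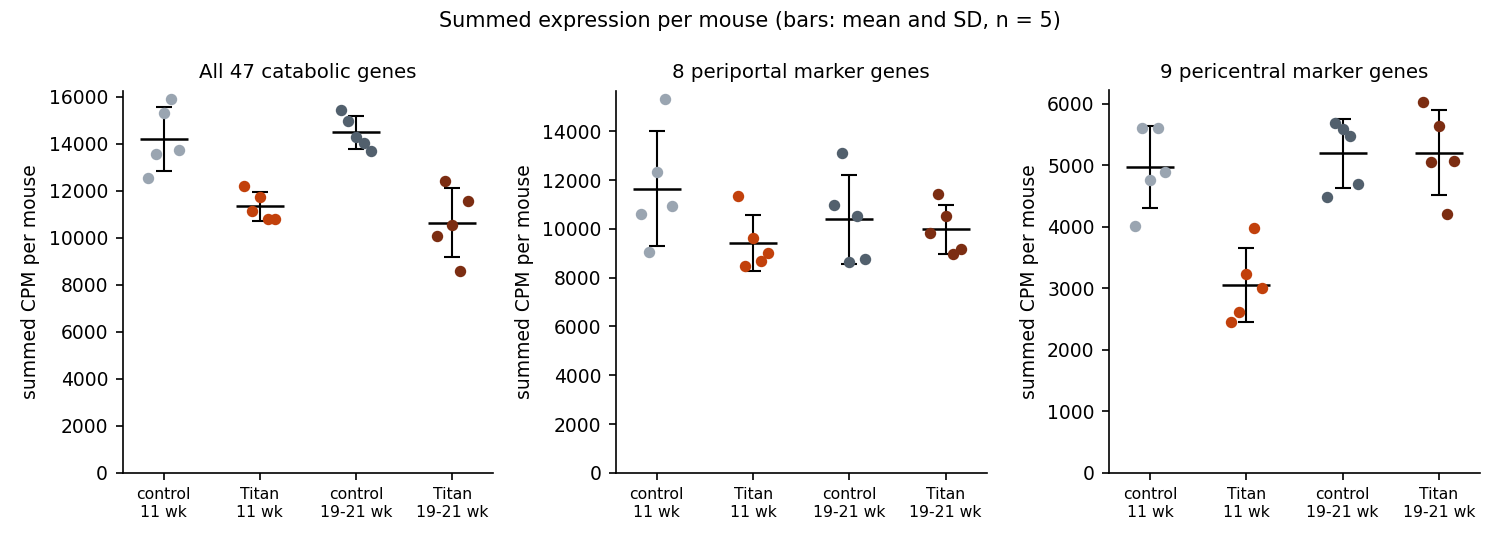
Summed CPM in each mouse (points) with the mean and SD (lines, n = 5) for the 47 catabolic genes, for 8 markers of periportal hepatocytes that are not among them, and for 9 markers of pericentral hepatocytes. The catabolic sums of Titan mice lay at 10782 to 12224 CPM at 11 weeks and at 8570 to 12429 CPM at 19-21 weeks, below all controls of the same age; the pericentral sums were apart at 11 weeks only, and the periportal sums overlapped at both ages.

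The count at 19-21 weeks rested partly on single mice. It was 15 without Titan mouse 4, beside 3.39% of all genes, and 17 without Titan mouse 1, beside 4.46% of all genes. Leaving out any other mouse of that comparison gave 20 to 30, beside 3.76 to 5.04% of all genes. At 11 weeks leaving out each mouse gave 16 to 20 genes, beside 5.88 to 7.38% of all genes. Of the genes called lower, 16 at 11 weeks and 14 at 19-21 weeks kept their call in all 18 alternative settings.

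The tissue label was checked against marker genes. Summed CPM of 6 hepatocyte markers (Alb, Apoa1, Ttr, Trf, Serpina1c and Fgb) ranged from 65458 to 96723 in controls of 19-21 weeks and from 72160 to 90237 in the Titan mice of that age, and the ranges at 11 weeks were 75996 to 95380 and 81087 to 100081. Most of the sum was Alb, at a mean of 66271 CPM in 11-week controls and 73176 CPM in 11-week Titan mice. Of these markers 2 of 6, Apoa1 and Trf, were called lower in Titan mice at 11 weeks and 0 at 19-21 weeks. At 11 weeks 5 of the 6 had log2 fold changes below 0, with a median of -0.35. By edgeR 4 were lower at that age at an unadjusted p under 0.05. At 19-21 weeks 3 of the 6 were below 0, with a median of -0.06. At 11 weeks the summed CPM of 9 pericentral genes was 4005 to 5600 in controls and 2446 to 3983 in Titan mice, with 4 of 9 called lower (Oat, Cyp2e1, Cyp1a2 and Lgr5). Most of that sum was Cyp2e1, at a mean of 3648 CPM in controls and 2150 CPM in Titan mice. The other 5 were not called, and Glul, Rhbg and Axin2 had log2 fold changes above 0 (0.06, 0.38 and 0.07). At 19-21 weeks these sums were 4486 to 5691 and 4204 to 6032, with 0 of 9 called. The sums of the 8 periportal genes outside the 47 (Cyp2f2, Hsd17b13, Pck1, Cps1, Ass1, Asl, Arg1 and Gls2) overlapped at both ages, at 9042 to 15328 CPM in controls and 8477 to 11343 CPM in Titan mice at 11 weeks, and at 8638 to 13103 and 8961 to 11432 CPM at 19-21 weeks. The largest part of these sums was Cps1, at a mean of 5895 CPM in 11-week controls and 3591 CPM in 11-week Titan mice. There were 12 periportal markers in all, 4 of which (Sds, Hal, Gldc and Uroc1) belong to the 47. Of the 12, 2 were called lower at 11 weeks (Hal and Cps1) and 4 at 19-21 weeks (Sds, Hal, Ass1 and Gls2). The log2 fold change was above 0 for 3 of the 12 at 11 weeks and for 4 at 19-21 weeks. Of 6 sinusoidal endothelial markers 2 were lower at each age (Kdr and Pecam1 at 11 weeks, Oit3 and Lyve1 at 19-21 weeks), with sums of 289 to 332 CPM in controls and 239 to 288 CPM in Titan mice at 11 weeks, and 289 to 311 and 242 to 300 CPM at 19-21 weeks. The 6 Kupffer cell markers (104 to 158 CPM at 11 weeks and 69.2 to 227 CPM at 19-21 weeks over both lines) and the cholangiocyte markers (4 of 5 tested, sums of 14.8 to 63.8 CPM over all mice) had 0 calls at either age. Of 6 stellate markers Des was called higher at 11 weeks. At that age 5 of the 6 had log2 fold changes above 0, with a median of 0.59, and 3 were higher at an unadjusted edgeR p under 0.05. The sums were 287 to 336 CPM in controls and 269 to 415 CPM in Titan mice at 11 weeks, and 258 to 435 and 329 to 404 CPM at 19-21 weeks. At 19-21 weeks 0 of the 6 were called, with 5 above 0 and a median of 0.17. Of 6 leukocyte markers 2 passed the filter on low counts, and Cd3e was higher at both ages; the leukocyte sums stayed at 11.4 to 32.5 CPM over all mice. The part of these markers in the results on the 47 genes was not tested.

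Sequencing depth was 6794935 to 23295028 reads on genes per mouse. Reads that fell on no annotated exon of the matching strand made up 14.8 to 30.5% of a library in controls and 13.1 to 31.0% in Titan mice. They can include reads in introns or antisense to a gene. With that share in the fit, added after the data were seen, 19 genes were called lower at 11 weeks and 24 at 19-21 weeks. The least counted of the 47 genes was Sdsl, with 20 to 144 reads per mouse.

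Since the 47 genes moved largely one way, the stretch just upstream of the start of 4 of them is shown, each a gene with groups apart at both ages from a different amino acid group. RefSeq promoter windows of the build GRCm38.p6 were at hand for 42 of the 47 genes (not for Sds, Dbt, Gpt, Kynu and Sdsl), and each printed stretch ends just before the gene's most upstream annotated exon. Capitals mark exact matches, on either strand, to 6 short motifs: the HNF1 element GTTAAT, the FOXA/FOXO core TGTTTAC, the glucocorticoid receptor hexamer AGAACA, the CRE core TGACG, the CCAAT box and the TATA box TATAAA. The letters run 5′ to 3′ on the gene's strand, and positions count back from -1 at the last base. No match of these motifs overlaps another in the windows printed.
Agxt, chr1:93134990-93135239, plus strand: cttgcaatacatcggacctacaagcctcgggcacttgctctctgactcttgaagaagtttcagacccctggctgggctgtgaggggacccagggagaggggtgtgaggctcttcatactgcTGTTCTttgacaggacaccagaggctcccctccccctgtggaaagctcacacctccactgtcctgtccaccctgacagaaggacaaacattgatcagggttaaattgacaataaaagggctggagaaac
Ivd, chr2:118861744-118861953, plus strand: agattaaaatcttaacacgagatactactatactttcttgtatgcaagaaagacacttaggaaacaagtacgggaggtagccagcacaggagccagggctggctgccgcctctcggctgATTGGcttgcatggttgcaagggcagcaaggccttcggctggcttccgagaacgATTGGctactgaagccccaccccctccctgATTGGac
Hpd, chr5:123182728-123182973, minus strand: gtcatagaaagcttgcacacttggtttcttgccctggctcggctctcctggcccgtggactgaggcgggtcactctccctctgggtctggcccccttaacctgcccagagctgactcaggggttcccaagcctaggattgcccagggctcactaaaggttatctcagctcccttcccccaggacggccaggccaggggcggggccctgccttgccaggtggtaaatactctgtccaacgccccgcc
Hal, chr10:93488518-93488767, plus strand: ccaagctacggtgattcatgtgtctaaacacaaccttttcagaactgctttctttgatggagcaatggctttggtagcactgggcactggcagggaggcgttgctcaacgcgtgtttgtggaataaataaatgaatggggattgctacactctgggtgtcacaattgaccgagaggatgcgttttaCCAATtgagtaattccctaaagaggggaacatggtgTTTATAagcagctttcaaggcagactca

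The Agxt window held 1 glucocorticoid receptor hexamer, on the minus strand, starting at -129. That of Ivd held 3 CCAAT boxes on the minus strand, starting at -91, -37 and -7. The Hal window held a CCAAT box at -64 and a TATA box on the minus strand at -28, and that of Hpd held 0 of the 6 motifs. Over the 250 bases upstream in all 48 windows of the 42 genes, a CCAAT box was present in 26 (54.2%), beside 33.8% of all 32851 windows of the table. The other shares, in the catabolic genes and in all windows, were 6.25% and 6.43% for the HNF1 element, 2.08% and 3.17% for the FOXA/FOXO core, 10.4% and 16.1% for the glucocorticoid receptor hexamer, 14.6% and 17.8% for the CRE core, and 14.6% and 12.4% for the TATA box. Among the 13 windows of genes lower at both ages, 6 held a CCAAT box (46.2%). A match describes the letters of the window, not a binding site.

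Levels differed widely between the genes. Per kilobase of exon in the 11-week controls, Hpd (606 CPM per kb), Tat (598 CPM per kb) and Tdo2 (453 CPM per kb) were the highest, followed by Qdpr (191), Hgd (190), Fah (181) and Agxt (150 CPM per kb). The lowest were Prodh (3.48), Asrgl1 (4.06), Sdsl (4.87) and Mccc1 (6.40 CPM per kb). Hpd and Tat did not differ beyond their spread, since their levels varied by 265 and 458 CPM (SD, n = 5) around means of 1290 and 1439 CPM.

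**Figure D3:**
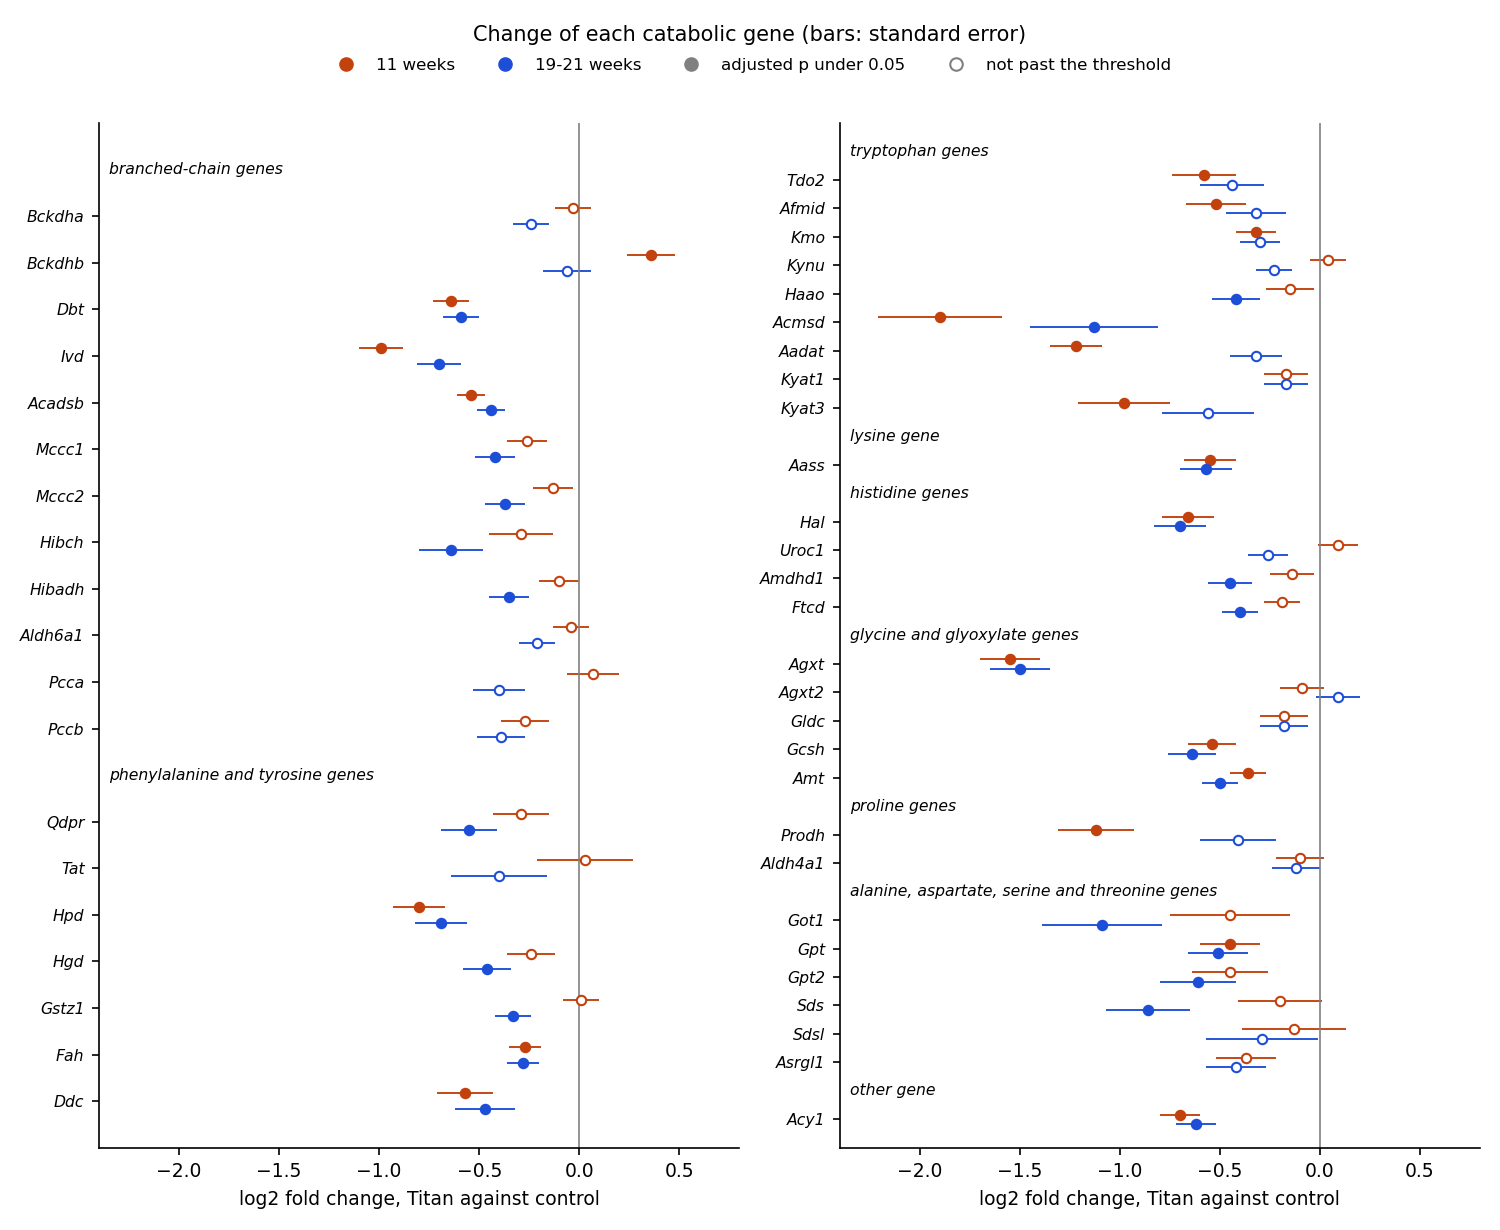
Log2 fold change of each of the 47 genes, Titan against control (horizontal axis), with its standard error, at 11 weeks (orange) and 19-21 weeks (blue), grouped by amino acid; filled points passed an adjusted p of 0.05. Nearly all points lie left of zero, from -1.90 (Acmsd at 11 weeks) to 0.36 (Bckdhb at 11 weeks), and the 14 genes filled at both ages all lie left of it.

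Among the 5 genes of glycine and glyoxylate, 3 were lower at each age: Agxt, Gcsh and Amt. Agxt (ENSMUSG00000026272, chromosome 1, 93135240 to 93145421) encodes the peroxisomal aminotransferase that turns glyoxylate into glycine, and its promoter window is the first of those printed above. It was at 236, 283, 255, 261 and 236 CPM in the 11-week controls and at 79.2, 72.9, 86.5, 126 and 69.2 CPM in the 11-week Titan mice. The 19-21-week controls were at 322, 264, 357, 272 and 388 CPM and the Titan mice at 104, 126, 125, 88 and 124 CPM. All 10 Titan mice lay far below all 10 controls. The log2 fold change was -1.55 at 11 weeks (standard error, SE, of 0.15, edgeR adjusted p = 1.2e-06) and -1.50 at 19-21 weeks (SE 0.15, adjusted p = 3.0e-06), or 0.341 and 0.354 of the control level. Agxt2, the mitochondrial aminotransferase of glyoxylate, did not pass the test (log2 fold changes of -0.09 and 0.09, adjusted p = 0.633 and 0.644).

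The glycine cleavage system splits glycine in mitochondria. Amt, its aminomethyltransferase, was at 80.6, 94.8, 85.7, 87.1 and 71.7 CPM in 11-week controls against 68.8, 68.4, 71.3, 60.5 and 57.4 CPM in Titan mice. At 19-21 weeks the values were 74.0, 80.1, 67.5, 70.9 and 85.8 CPM against 46.9, 56.4, 50.1, 53.0 and 61.4 CPM. The groups were apart at both ages, narrowly so at 11 weeks, with log2 fold changes of -0.36 (SE 0.09, edgeR adjusted p = 0.00837) and -0.50 (SE 0.09, adjusted p = 0.00162). Gcsh, the lipoate-bearing H protein, was at 63.5, 54.0, 64.5, 60.2 and 80.8 CPM in 11-week controls and at 50.0, 44.9, 44.4, 37.6 and 44.5 CPM in Titan mice. At 19-21 weeks its values were 68.4, 58.9, 73.1, 44.1 and 70.5 CPM in controls and 37.1, 43.5, 40.4, 35.9 and 45.0 CPM in Titan mice. Titan and control mice were apart at 11 weeks and overlapped at 19-21 weeks through control mouse 4, and the log2 fold changes were -0.54 (SE 0.12, adjusted p = 0.00423) and -0.64 (SE 0.12, adjusted p = 0.00235). Gcsh has processed pseudogenes with up to 91.4% identity over 523 bases, so some of its reads could have been dropped as multi-mapped; the pseudogenes themselves had 0 to 5 counts per mouse. Gldc, the decarboxylase of the system, had log2 fold changes of -0.18 at both ages and did not pass (adjusted p = 0.333 and 0.377).

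Of the 12 branched-chain genes, 3 were lower and 1 higher at 11 weeks, and 7 were lower at 19-21 weeks, with median log2 fold changes of -0.19 and -0.39. Dbt, Ivd and Acadsb were lower at both ages, each with groups apart and each in all 18 alternatives. Ivd (ENSMUSG00000027332, chromosome 2, 118861954 to 118882909), the isovaleryl-CoA dehydrogenase of leucine, was at 179, 198, 210, 224 and 193 CPM in 11-week controls and at 93.9, 91.7, 103, 121 and 97.3 CPM in Titan mice. At 19-21 weeks its values were 186, 235, 194, 171 and 198 CPM in controls and 108, 133, 135, 97.2 and 133 CPM in Titan mice. The Titan mice stayed clear of the controls, with log2 fold changes of -0.99 (SE 0.11, edgeR adjusted p = 3.8e-06) and -0.70 (SE 0.11, adjusted p = 2.6e-04).

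Dbt carries the transacylase core of the branched-chain 2-oxo acid dehydrogenase, the committed step shared by leucine, isoleucine and valine. It was at 121, 129, 146, 153 and 142 CPM in 11-week controls against 83.0, 95.9, 87.0, 87.4 and 90.7 CPM in Titan mice. Among older mice the controls were at 146, 147, 130, 120 and 135 CPM and the Titan mice at 87.9, 104, 86.7, 75.3 and 97.1 CPM. The log2 fold changes were -0.64 (SE 0.09, edgeR adjusted p = 4.1e-05) and -0.59 (SE 0.09, adjusted p = 2.1e-04). The genes of the 2 decarboxylase subunits of the same complex were not called lower at either age. Bckdhb was the only catabolic gene called higher, by 0.36 at 11 weeks (SE 0.12, adjusted p = 0.0385), with overlapping groups, and at -0.06 it did not pass at 19-21 weeks (adjusted p = 0.781). The call of Bckdhb was lost without any of 8 of the 10 mice compared, control mice 1 to 4 and Titan mice 1, 2, 3 and 5 (adjusted p 0.0537 to 0.0931). Bckdha stood at -0.03 and -0.24 and did not pass at either age (adjusted p = 0.874 and 0.0881).

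Acadsb, the dehydrogenase of isoleucine-derived acyl-CoA, was at 283, 289, 333, 295 and 297 CPM in 11-week controls and at 212, 200, 197, 210 and 210 CPM in Titan mice. At 19-21 weeks it was at 278, 281, 293, 266 and 241 CPM in controls and at 196, 211, 195, 181 and 216 CPM in Titan mice. Its log2 fold changes of -0.54 (SE 0.07, edgeR adjusted p = 2.1e-05) and -0.44 (SE 0.07, adjusted p = 3.4e-04) were smaller than those of Ivd, with little spread between mice.

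The 4 branched-chain genes lower at 19-21 weeks but not past the threshold at 11 weeks were Mccc1 (-0.42, adjusted p = 0.0121) and Mccc2 (-0.37, adjusted p = 0.0260), the subunits of methylcrotonyl-CoA carboxylase in leucine breakdown, and Hibch (-0.64, adjusted p = 0.0149) and Hibadh (-0.35, adjusted p = 0.0260), which act in turn on valine. At 11 weeks they stood at -0.26, -0.13, -0.29 and -0.10. The calls of Mccc2 and Hibadh were lost without Titan mouse 1 or 4 or control mouse 1, that of Mccc2 also without control mouse 4 and that of Hibadh without control mouse 2 (adjusted p 0.0504 to 0.0724). Aldh6a1, the methylmalonate semialdehyde dehydrogenase, and Pcca and Pccb, the subunits of propionyl-CoA carboxylase, did not pass at either age, with -0.04, 0.07 and -0.27 at 11 weeks and -0.21, -0.40 and -0.39 at 19-21 weeks.

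Of the 7 genes of phenylalanine and tyrosine, 3 were lower at 11 weeks and 6 at 19-21 weeks, with median log2 fold changes of -0.27 and -0.46. Hpd (ENSMUSG00000029445, chromosome 5, 123171807 to 123182727), the dioxygenase that makes homogentisate, was at 1020, 1405, 1157, 1694 and 1175 CPM in 11-week controls and at 851, 614, 717, 819 and 705 CPM in Titan mice. In the older mice it was at 1464, 1407, 1304, 1374 and 1170 CPM in controls and at 819, 889, 912, 645 and 885 CPM in Titan mice. The groups were apart at both ages, by -0.80 (SE 0.13, edgeR adjusted p = 2.5e-04) and -0.69 (SE 0.13, adjusted p = 0.00175) on the log2 scale. Hgd, which opens the ring of homogentisate, was lower at 19-21 weeks (-0.46, edgeR adjusted p = 0.0232) and stood at -0.24 at 11 weeks. Gstz1, the isomerase, was lower at 19-21 weeks (-0.33, adjusted p = 0.0233) and stood at 0.01 at 11 weeks. Fah, the last step, was lower at both ages (-0.27, adjusted p = 0.0261, and -0.28, adjusted p = 0.0347). Without Titan mouse 1 or 4 of 19-21 weeks the calls of Hgd, Gstz1 and Fah at that age were lost, as they were without control mouse 1 or 4 (Hgd), control mouse 1 or 3 (Gstz1), and control mouse 2 or 4 or Titan mouse 5 (Fah, adjusted p over all 3 genes 0.0528 to 0.0954). The call of Fah at 11 weeks was lost without control mouse 4 or 5 or Titan mouse 2, 3 or 5 (0.0540 to 0.0770).

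Qdpr, which regenerates tetrahydrobiopterin, was at 279, 336, 301, 397 and 391 CPM in 11-week controls and 305, 269, 306, 246 and 273 CPM in Titan mice. The older controls stood at 378, 414, 327, 314 and 384 CPM, and the Titan mice of that age at 170, 320, 248, 212 and 294 CPM. The groups overlapped at both ages, and the gene passed at 19-21 weeks (-0.55, SE 0.14, edgeR adjusted p = 0.0185) but not at 11 weeks (-0.29, adjusted p = 0.199). Without Titan mouse 4 its adjusted p was 0.0543. Ddc, the decarboxylase of aromatic amino acids, was at 148, 202, 228, 244 and 257 CPM against 138, 141, 154, 148 and 144 CPM at 11 weeks. At 19-21 weeks the values were 177, 185, 151, 130 and 179 CPM against 96.9, 89.0, 136, 122 and 149 CPM. Its Titan mice overlapped the lowest controls, with log2 fold changes of -0.57 (adjusted p = 0.00935) and -0.47 (adjusted p = 0.0474). The later call was lost when any of 7 of the 10 mice was left out, controls 1, 2, 3 and 5 and Titan mice 1, 2 and 4 (adjusted p 0.0565 to 0.108). Tat, the aminotransferase that starts tyrosine breakdown, varied widely between mice and did not pass, at 0.03 (adjusted p = 0.960) and -0.40 (adjusted p = 0.333).

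The 9 tryptophan genes had 6 lower at 11 weeks and 2 at 19-21 weeks, with median log2 fold changes of -0.52 and -0.32. Acmsd (ENSMUSG00000026348, chromosome 1, 127729413 to 127767978) encodes the decarboxylase that diverts the pathway away from NAD synthesis. It was at 28.0, 14.4, 24.6, 62.0 and 22.8 CPM in 11-week controls and at 13, 7.66, 5.40, 8.64 and 6.22 CPM in Titan mice. At 19-21 weeks it was at 16, 23.4, 14.7, 14.8 and 26.0 CPM in controls and 9.65, 7.91, 7.29, 7.59 and 10.7 CPM in Titan mice. Titan and control mice were apart at both ages, though control mouse 4 at 11 weeks was far above the rest. The log2 fold changes were -1.90 (SE 0.31, edgeR adjusted p = 2.8e-04) and -1.13 (SE 0.32, adjusted p = 0.0280). The call at 19-21 weeks was lost without control mouse 2 or 5 or Titan mouse 2, 3 or 4 (adjusted p 0.0526 to 0.0719).

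Aadat (ENSMUSG00000057228, chromosome 8, 60505932 to 60545677), an aminotransferase of kynurenine and of 2-aminoadipate from lysine, was at 214, 154, 144, 170 and 165 CPM in 11-week controls and at 61.3, 64.9, 78.2, 89.6 and 69.2 CPM in Titan mice. At 19-21 weeks the controls were at 105, 139, 123, 133 and 128 CPM and the Titan mice at 121, 85.3, 99.5, 84.7 and 114 CPM. The groups were far apart at 11 weeks (-1.22, SE 0.13, edgeR adjusted p = 2.9e-06) and overlapped at 19-21 weeks (-0.32, SE 0.13, adjusted p = 0.123). Kyat3, another kynurenine aminotransferase, was at 259, 242, 258, 238 and 210 CPM against 115, 105, 143, 121 and 124 CPM at 11 weeks. Among older mice the controls were at 207, 209, 208, 228 and 150 CPM and the Titan mice at 200, 130, 59.1, 87.5 and 203 CPM. At 11 weeks its groups were apart (-0.98, SE 0.23, adjusted p = 0.00537). At 19-21 weeks Titan mice 1 and 5 reached the control range while the others did not, and the gene did not pass (-0.56, SE 0.23, adjusted p = 0.132).

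Tdo2, the dioxygenase of the entry step, was lower at 11 weeks with groups apart (-0.58, SE 0.16, edgeR adjusted p = 0.0156) and stood at -0.44 at 19-21 weeks (adjusted p = 0.0866). Afmid, the formamidase that follows, was lower at 11 weeks (-0.52, adjusted p = 0.0189), and its call was lost without control mouse 4 or Titan mouse 2 (adjusted p 0.0577 to 0.0666). A further transcribed locus on the same strand shares 44.2% of the exon length of Afmid, and reads falling on both were not counted. Kmo, the hydroxylase of kynurenine, was lower at 11 weeks (-0.32, adjusted p = 0.0280), a call lost without control mouse 2, 3 or 4 or Titan mouse 3, 4 or 5 (0.0530 to 0.103). Haao, which makes the precursor of quinolinate, was lower at 19-21 weeks (-0.42, adjusted p = 0.0277) and stood at -0.15 at 11 weeks (adjusted p = 0.440). It lost its call without control mouse 1 or 2 or Titan mouse 1 or 4 (0.0655 to 0.0783). Kynu, the kynureninase, and Kyat1 did not pass, at 0.04 and -0.17 at 11 weeks and -0.23 and -0.17 at 19-21 weeks.

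Aass (ENSMUSG00000029695, chromosome 6, 23072173 to 23132986), the bifunctional enzyme that starts lysine breakdown, was lower at both ages. It was at 277, 318, 328, 441 and 368 CPM in 11-week controls and 277, 249, 211, 231 and 214 CPM in Titan mice. The older controls stood at 392, 376, 349, 294 and 374 CPM, and the Titan mice of that age at 239, 309, 214, 190 and 247 CPM. The groups were apart at 11 weeks, where the lowest control and the highest Titan mouse both rounded to 277 CPM, and overlapped at 19-21 weeks, through Titan mouse 2 and control mouse 4. The log2 fold changes were -0.55 (SE 0.13, edgeR adjusted p = 0.00584) and -0.57 (SE 0.13, adjusted p = 0.00830).

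Of the 4 histidine genes, Hal was lower at 11 weeks and Hal, Amdhd1 and Ftcd at 19-21 weeks. Hal (ENSMUSG00000020017, chromosome 10, 93488768 to 93519304), the ammonia lyase of the committed step, was at 415, 465, 580, 611 and 435 CPM in 11-week controls and at 365, 315, 276, 289 and 336 CPM in Titan mice. In the older mice it was at 508, 435, 385, 362 and 562 CPM in controls and 263, 276, 245, 301 and 299 CPM in Titan mice. Titan and control mice were apart at both ages, with log2 fold changes of -0.66 (SE 0.13, edgeR adjusted p = 0.00116) and -0.70 (SE 0.13, adjusted p = 0.00150).

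Amdhd1, the imidazolonepropionase, lies near Hal on chromosome 10, on the opposite strand. It was at 138, 209, 159, 181 and 160 CPM against 163, 165, 156, 131 and 153 CPM at 11 weeks. At 19-21 weeks the values were 179, 159, 174, 149 and 213 CPM against 115, 154, 122, 119 and 128 CPM. Overlap was broad at 11 weeks (-0.14, edgeR adjusted p = 0.457) and came from Titan mouse 2 and control mouse 4 at 19-21 weeks (-0.45, SE 0.11, adjusted p = 0.0150). Ftcd, which passes the formimino group to tetrahydrofolate, was at 352, 384, 432, 404 and 406 CPM against 407, 314, 329, 328 and 356 CPM at 11 weeks. Among older mice the controls were at 452, 440, 433, 375 and 401 CPM and the Titan mice at 296, 365, 332, 272 and 326 CPM. The groups overlapped at 11 weeks (-0.19, adjusted p = 0.173) and were apart at 19-21 weeks (-0.40, SE 0.09, adjusted p = 0.00726). Uroc1, the urocanate hydratase between Hal and Amdhd1 in the pathway, did not pass, at 0.09 and -0.26 (adjusted p = 0.625 and 0.118).

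**Figure D4:**
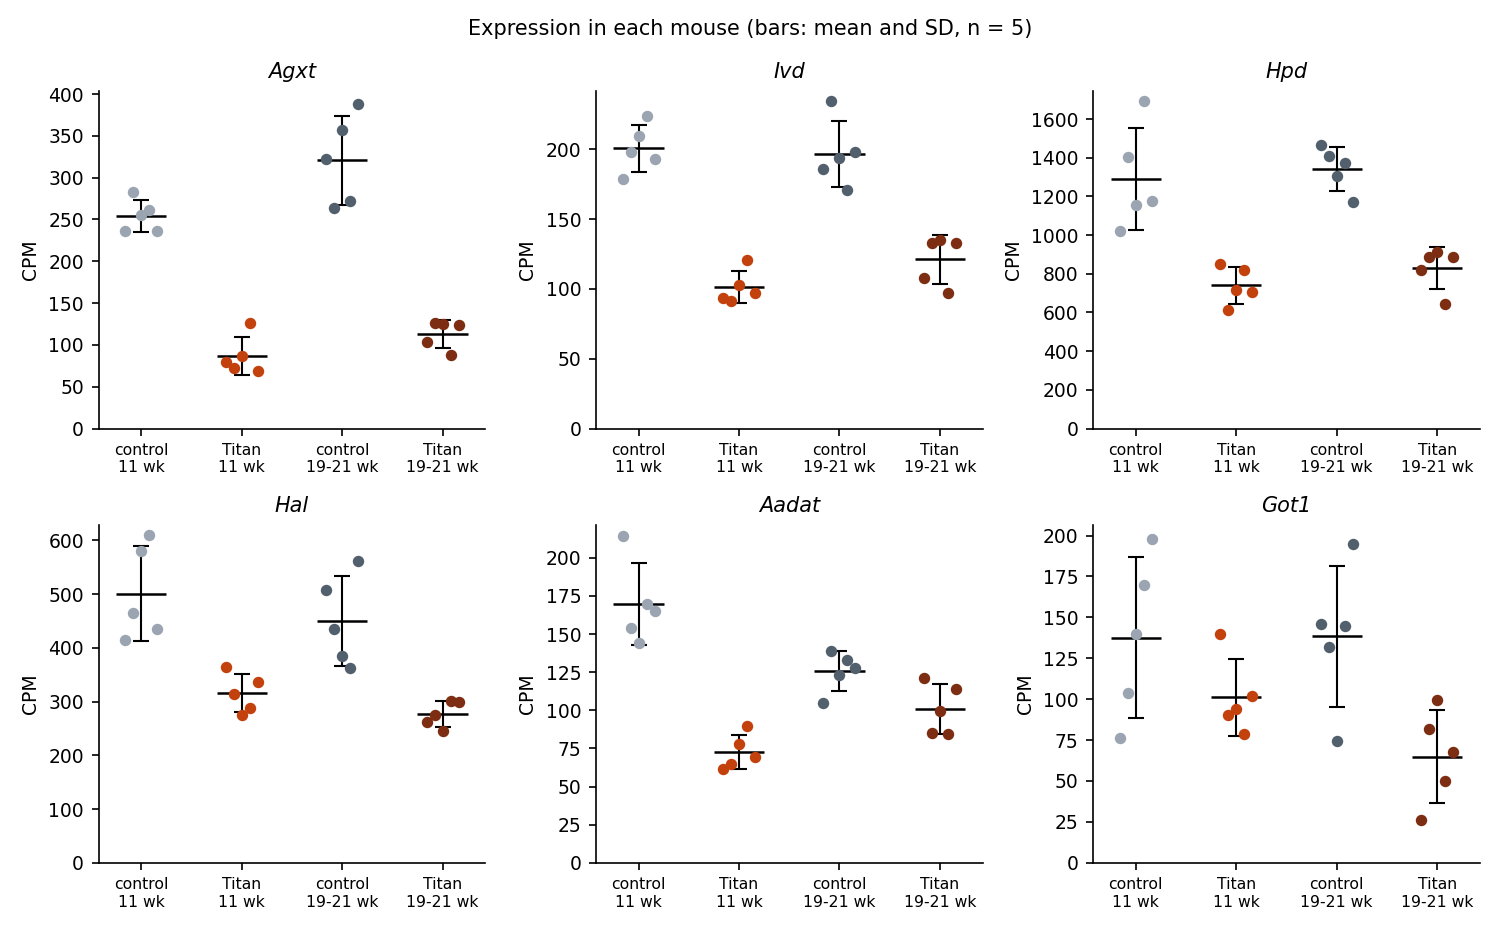
CPM in each mouse (points) of 6 catabolic genes by group, with the mean and SD (lines, n = 5). Titan and control mice do not overlap at either age for Agxt, Ivd, Hpd and Hal; Aadat is apart at 11 weeks only, and Got1 overlaps at both ages, with Titan mice of 19-21 weeks at 26.0 to 99.2 CPM.

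Prodh (ENSMUSG00000003526, chromosome 16, 18060357 to 18090203), the proline dehydrogenase, was at 22.7, 22.5, 25.1, 31.2 and 34.2 CPM in 11-week controls and at 12.7, 9.22, 15.5, 10.4 and 14.4 CPM in Titan mice, and the groups were apart (-1.12, SE 0.19, edgeR adjusted p = 3.5e-04). At 19-21 weeks it was at 25.6, 31.4, 17.1, 18.2 and 27.4 CPM in controls and 22.3, 15.9, 16.9, 13.4 and 21.9 CPM in Titan mice, and the groups overlapped (-0.41, SE 0.19, adjusted p = 0.189). Aldh4a1, which oxidises the product of Prodh to glutamate, was at 156, 166, 145, 192 and 189 CPM against 174, 152, 162, 155 and 149 CPM at 11 weeks. The older controls stood at 154, 220, 135, 204 and 175 CPM, and the Titan mice of that age at 141, 171, 182, 144 and 177 CPM. It did not pass at either age (-0.10 and -0.12, adjusted p = 0.649 and 0.567). A second annotated locus on the same strand shares 32.5% of the exon length of Aldh4a1, so that gene's counts are uncertain.

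Of the 6 genes of alanine, aspartate, serine and threonine, 1 was lower at 11 weeks and 4 at 19-21 weeks, with median log2 fold changes of -0.41 and -0.56. Got1 (ENSMUSG00000025190, chromosome 19, 43499752 to 43524605), the cytosolic aspartate aminotransferase, was at 76.0, 104, 140, 170 and 198 CPM in 11-week controls and 140, 90.3, 93.8, 79.0 and 102 CPM in Titan mice. In the older mice it was at 146, 132, 74.6, 145 and 195 CPM in controls and 26.0, 81.8, 99.2, 49.8 and 67.9 CPM in Titan mice. The groups overlapped at both ages. The log2 fold change was -0.45 at 11 weeks (SE 0.30, edgeR adjusted p = 0.359) and -1.09 at 19-21 weeks (SE 0.30, adjusted p = 0.0268), the latter lost without control mouse 1 or 5 or Titan mouse 1 or 4 (0.0503 to 0.0721).

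Sds, the serine dehydratase, was at 56.9, 77.7, 91.5, 91.9 and 81.5 CPM against 84.6, 71.3, 62.2, 58.8 and 72.0 CPM at 11 weeks. At 19-21 weeks the values were 112, 111, 127, 100 and 114 CPM against 47.3, 116, 59.4, 42.1 and 47.2 CPM. The 11-week groups overlapped broadly (-0.20, edgeR adjusted p = 0.595), and at 19-21 weeks 4 of 5 Titan mice lay far below all controls while Titan mouse 2 lay among them (-0.86, SE 0.21, adjusted p = 0.0129). Gpt, the cytosolic alanine aminotransferase, was at 139, 173, 200, 215 and 283 CPM against 163, 146, 161, 120 and 148 CPM at 11 weeks. Among older mice the controls were at 198, 267, 197, 225 and 217 CPM and the Titan mice at 147, 170, 163, 116 and 181 CPM. It passed narrowly at both ages, with overlapping groups at 11 weeks (-0.45, SE 0.15, adjusted p = 0.0484) and groups apart at 19-21 weeks (-0.51, SE 0.15, adjusted p = 0.0419). Gpt kept its call in 3 of the 18 alternatives at 11 weeks and in 11 at 19-21 weeks. At 11 weeks leaving out control mouse 3, 4 or 5 or any Titan mouse ended it (adjusted p 0.0579 to 0.168), and at 19-21 weeks control mouse 2, 4 or 5 or Titan mouse 1, 3 or 4 (0.0635 to 0.111). Gpt2, the mitochondrial enzyme, was lower at 19-21 weeks (-0.61, adjusted p = 0.0484) in the main setting and in 6 of 18 alternatives, and was lost without control mouse 2, 4 or 5 or Titan mouse 1, 4 or 5 (0.0762 to 0.126). A processed pseudogene with 0 to 19 counts per mouse is 92.2% identical to Gpt2 over 1328 bases, so some reads of Gpt2 could have been dropped as multi-mapped. Sdsl, a relative of Sds, and Asrgl1, which hydrolyses asparagine, did not pass, at -0.13 and -0.37 at 11 weeks and -0.29 and -0.42 at 19-21 weeks.

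Acy1 (ENSMUSG00000023262, chromosome 9, 106432981 to 106438319), which frees amino acids from their N-acetylated forms, was at 25, 26.2, 31.8, 26.8 and 29.0 CPM in 11-week controls and 17, 15.4, 17.4, 16.7 and 18.7 CPM in Titan mice. The older controls stood at 24.7, 31.4, 26.4, 26.6 and 21.5 CPM, and the Titan mice of that age at 18.2, 19.7, 16.9, 15.6 and 14.9 CPM. The groups were apart at both ages, with log2 fold changes of -0.70 (SE 0.10, edgeR adjusted p = 6.6e-05) and -0.62 (SE 0.10, adjusted p = 6.1e-04).

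Across the 2 ages, which share no mice, 14 of the 47 genes were lower both times, beside 2.89% of all tested genes (399 genes): Dbt, Ivd, Acadsb, Hpd, Fah, Ddc, Acmsd, Aass, Hal, Agxt, Gcsh, Amt, Gpt and Acy1. That is 14 of the 20 genes lower at 11 weeks and 14 of the 27 lower at 19-21 weeks. The 6 genes called lower at 11 weeks only were Tdo2, Afmid, Kmo, Aadat, Kyat3 and Prodh, and 13 were called at 19-21 weeks only. Of the 47 genes 13 were called at neither age: Bckdha, Aldh6a1, Pcca, Pccb, Tat, Kynu, Kyat1, Uroc1, Agxt2, Gldc, Aldh4a1, Sdsl and Asrgl1.

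Whether the line difference itself changed with age was tested as the interaction of line and age, which called 0 of the 47 genes by edgeR, beside 0.00726% of all tested genes (1 gene). Unadjusted edgeR p-values lay below 0.05 for 6 genes with a more negative difference at 19-21 weeks and for 2 with a less negative one. Over all 13783 tested genes they did so for 609 with an interaction below 0 and for 621 with one above 0. DESeq2 called 1 of the 47, Aadat. In edgeR Aadat had an interaction of 0.91 (SE 0.18, adjusted p = 0.0905), with the values of its 4 groups given above. Its interaction passed with DESeq2 (0.89, adjusted p = 0.00179), without the filter on low counts (0.88, adjusted p = 0.0246), without Titan mouse 4 of 11 weeks (0.99, adjusted p = 0.0146) and without Titan mouse 4 of 19-21 weeks (0.96, adjusted p = 0.0485). So a gene called at 1 age only is not shown to differ between the ages.

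Between the ages within a line, few of the genes moved. In Titan mice 1 of the 47 was lower at 19-21 weeks than at 11 weeks, beside 0.762% of all genes, and 0 were higher, beside 0.486%. Unadjusted edgeR p-values below 0.05 were seen for 8 lower and 4 higher genes, beside 1006 lower and 1148 higher of all 13783 tested genes. DESeq2 called 1 of the 47 lower and 1 higher (Aadat, 0.46, adjusted p = 0.0241). The gene called lower by edgeR was Pcca, a subunit of propionyl-CoA carboxylase, at 142, 133, 114, 90.5 and 115 CPM in 11-week Titan mice and 69.2, 107, 78.6, 65.0 and 93.8 CPM at 19-21 weeks. The controls were at 108, 104, 127, 105 and 121 CPM and at 113, 117, 116, 101 and 96.2 CPM. The Titan groups overlapped, with a log2 fold change of -0.52 (SE 0.13, edgeR adjusted p = 0.0476). The call of Pcca was lost in a fit of the Titan mice alone and with the share of reads on no annotated exon in the model. It was kept in 2 of the 10 edgeR fits that left out a Titan mouse, those without mouse 4 of 11 weeks (adjusted p = 0.0109) and without mouse 2 of 19-21 weeks (adjusted p = 0.0196). Without Titan mouse 4 of 11 weeks, Agxt and Aadat were called higher with age (0.56 each, adjusted p = 0.0182 and 0.0212).

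In control mice 0 of the 47 genes were called between the ages by edgeR, beside 0.0435% of all genes lower and 0.0435% higher, and 0 by DESeq2. Unadjusted edgeR p-values below 0.05 were seen for 3 lower and 2 higher genes, beside 450 lower and 398 higher of all 13783 tested genes. The groups did not overlap for 2 genes, Sds, higher at 19-21 weeks (0.50, edgeR adjusted p = 0.703), and Aadat, lower (-0.43, adjusted p = 0.398). Of all 13783 tested genes, 70 had groups apart in the higher direction and 70 in the lower. These age comparisons use the same mice as the line comparisons above.

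Beyond the 47, a list of 64 further enzymes and transporters of the same routes had 60 tested genes, of which 18 were lower and 2 higher at 11 weeks and 15 lower and 0 higher at 19-21 weeks, with median log2 fold changes of -0.18 and -0.19. Over all tested genes 7.69% were lower and 7.23% higher at 11 weeks, and 4.88% and 4.24% at 19-21 weeks; the routes hold few genes each. Several were lower at both ages. Gch1, which starts the synthesis of tetrahydrobiopterin, had log2 fold changes of -0.58 and -0.67 (edgeR adjusted p = 0.00201 and 0.00120). In branched-chain breakdown Auh (-0.21 and -0.20), Mcee (-0.37 and -0.44) and Mut (-0.35 and -0.43) were lower at both ages. So were Otc of the urea cycle (-0.46 and -0.58), Ido2 (-0.41 and -0.50), Hoga1 of hydroxyproline breakdown (-0.32 and -0.34), the glutamine transporter Slc38a3 (-0.85 and -1.08), the cationic amino acid transporter Slc7a2 (-0.71 and -0.67) and the aspartate-glutamate carrier Slc25a13 (-0.41 and -0.32). At 19-21 weeks the calls of Auh, Slc7a2 and Slc25a13 held in 2, 7 and 9 of the 18 alternatives, and that of Ido2 at 11 weeks in 5; all 4 were lost when single mice were left out.

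By route, 2 of 6 urea cycle genes were lower at each age (Otc, with Cps1 at 11 weeks and Ass1 at 19-21 weeks). Of the other branched-chain genes 3 of 14 tested were lower at 11 weeks and 4 of 14 at 19-21 weeks, where Echs1 joined Auh, Mcee and Mut. Of the other lysine genes 0 of 5 were called by edgeR (1 at 11 weeks and 3 at 19-21 weeks at an unadjusted p under 0.05). Of the other tryptophan and NAD genes 1 of 4 tested was lower at each age, with Nmnat1 higher at 11 weeks (0.29, edgeR adjusted p = 0.0417, held in 8 of 18 alternatives). Of the proline, ornithine and glutamate genes 2 of 7 were lower at each age, among them at 19-21 weeks the glutaminase Gls2 (-0.90, adjusted p = 0.00202), with groups apart. Of the other glycine, serine, threonine and glyoxylate genes 3 of 8 tested were lower at 11 weeks (Shmt2, Gcat and Hao1) and 0 at 19-21 weeks. Of the 12 transporters 5 were lower at 11 weeks and 4 at 19-21 weeks, the most at 11 weeks the amino acid transporter Slc43a1 (-2.17, SE 0.35, adjusted p = 2.8e-04), and Slc25a22 was higher at 11 weeks (0.30, adjusted p = 0.0480, held in 7 of 18 alternatives).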

How the data were processed

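Liver RNA of 20 male mice (5 per group) was sequenced from rRNA-depleted, strand-specific libraries. Per the labels and the study's methods, the authors aligned reads with STAR 2.5.3a to GRCm38 and deposited raw gene counts; reads that mapped to several places or to overlapping genes were not counted. Symbols and exon lengths came from GENCODE M21 (55480 of 55573 IDs matched). Lines that name no gene were left out, and so were 1562 Y-chromosome and 92 histone genes, as in the study. Counts of the matching strand were filtered (filterByExpr), TMM-scaled and fitted with edgeR 4.0.16 (R 4.3.3) over all 20 mice; 2-sided p-values were adjusted by Benjamini-Hochberg over 13783 genes. Standard errors (SE) were derived from each F statistic and its log2 fold change. DESeq2 1.42.0 and further settings were alternatives, and the procedure was tested on simulated data. The 47 genes and all lists were chosen with earlier results of these data known. Each of the 47 genes past the threshold was named, and of other lists a selection. Values per mouse were given for up to 3 genes per amino acid group with the smallest p in the line comparisons. They were also given for any of the 47 past the threshold in an age comparison or the interaction, which added Pcca. A further gene of the pathway lists and a promoter window are not reported here.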

Additional observations from a re-analysis of the deposited data

Results flagged for a closer look

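Within the groups of 5 mice, 23 of the catabolic genes were searched for a mouse far from the other 4 (Dixon's test at the 95% level, 92 groups, of which chance flags about 1 in 20), and 4 mice were found. Acadsb stood at 333 CPM in control mouse 3 of 11 weeks, against 283 to 297 CPM in the other controls. Acmsd stood at 62.0 CPM in control mouse 4 of 11 weeks, against 14.4 to 28.0 CPM. Kyat3 stood at 150 CPM in control mouse 5 of 19-21 weeks, against 207 to 228 CPM. Sds stood at 116 CPM in Titan mouse 2 of 19-21 weeks, against 42.1 to 59.4 CPM in the other Titan mice.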

How the results depend on the processing

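The count of catabolic genes lower at 11 weeks was 17 to 20 over DESeq2, other scaling, other strand counting, other filters, a fit of the groups compared only and the covariate, and 16 to 20 with each mouse left out. At 19-21 weeks it was 30 with DESeq2, 18 with only the groups compared, 24 to 26 with the other settings, and 15 to 30 with each mouse left out (17 without Titan mouse 1, 15 without Titan mouse 4). The count higher at 11 weeks was 0 with only the groups compared and 0 to 1 with each mouse left out. The count lower with age in Titan mice was 0 with only the groups compared, 0 with the covariate and 0 to 1 with each mouse left out, and the count higher was 1 with DESeq2 and 0 to 2. The interaction count was 1 with DESeq2, 1 without a filter and 0 to 1 with each mouse left out. In the line comparisons 6 of the 47 genes, all uncalled there, changed sign under some setting: Bckdhb at 19-21 weeks was 0.00 without Titan mouse 4 (-0.11 to 0.00 with each mouse left out), Gstz1 at 11 weeks was -0.03 without control mouse 1 and -0.02 without Titan mouse 2 (-0.03 to 0.05), Bckdha at 11 weeks was 0.02 with counts over both strands and -0.08 to 0.02 with each mouse left out, and at the same age the ranges were -0.12 to 0.21 for Tat, -0.00 to 0.08 for Kynu and -0.27 to 0.02 for Sdsl. The cause was not tested. Replicate numbers are shared between groups, but same-numbered mice did not deviate together (correlations of -0.184 to 0.205, median -0.0232, 30 pairs); with the replicate number as a block, 18 genes were lower at 11 weeks and 26 at 19-21 weeks. Depth limits genes such as Sdsl, with as few as 20 reads in a mouse.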

Other observations

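Of 12 regulators of hepatic metabolism 1, the forkhead factor Foxa2, was lower in Titan mice at 11 weeks (-0.66, standard error 0.18, edgeR adjusted p = 0.0143, called in all 18 alternatives), a share close to the 7.69% of all tested genes, and 0 were called at 19-21 weeks (2 at an unadjusted p under 0.05). Of 10 genes of the glucocorticoid and fasting response, 1 was called higher at each age and 0 lower. Over all tested genes 7.23% were called higher at 11 weeks and 4.24% at 19-21 weeks. At 11 weeks the gene was Sgk1, a kinase (0.96, standard error 0.27, edgeR adjusted p = 0.0173). At 19-21 weeks Sgk1 had a mean of 29.50 CPM in controls and 24.43 CPM in Titan mice. Igfbp1 went the other way at 11 weeks, at means of 30.54 CPM in controls and 12.63 CPM in Titan mice. The log2 fold change was above 0 for 8 of the 10 genes at 11 weeks and for 7 at 19-21 weeks. Fkbp5, a co-chaperone of the glucocorticoid receptor, was higher at 19-21 weeks (1.09, standard error 0.22, adjusted p = 0.00283). At 11 weeks Fkbp5 stood at 0.44 (adjusted p = 0.162).

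Of 10 genes of the ATF4 amino acid response, 9 were tested. At 11 weeks 1 of the 9 was called lower and 1 higher, beside 7.69% and 7.23% of all tested genes. Asns, the asparagine synthetase, was lower (-1.70, standard error 0.53, edgeR adjusted p = 0.0335, called in 9 of 18 alternatives). Sesn2, a leucine sensor, was higher in all 5 Titan mice (8.54 to 14.8 CPM) than in any control (5.10 to 6.50 CPM, edgeR adjusted p = 0.00122). Every Titan mouse lay above every control for 5.84% of all tested genes at that age. At 19-21 weeks 0 were called by edgeR, with 1 lower and 3 higher at an unadjusted p under 0.05.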
